A study of Mus musculus with 4 samples.

Results

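The genes described here are 10 that are commonly listed as raised in haematopoietic stem cells (HSCs) of old mice: Selp, Clu, Aldh1a1, Nupr1, Neo1, Alcam, Gda, Fhl1, Ehd3 and Jam2. They were taken by symbol from both gene count matrices, where all 10 were present among 32285 genes. The cells came from bone marrow of 2 male Tppp3CreER LSLTdTomato mice that were 3 months old, so the data hold no old animal and no comparison of ages. Tamoxifen at P0 and P3 let the Cre recombinase, placed under control of Tppp3, switch on tdTomato in cells active for Tppp3 in the newborn and in their progeny. All cells shared this genotype and treatment and were sorted as Lin-Sca+Kit+, a gate that holds HSCs and multipotent progenitors. Within it, 4 tubes were compared: the tdTomato-positive tubes of mouse 1 and mouse 2, and the tdTomato-negative tubes of mouse 1 and mouse 2. Each tube carried a hashtag antibody and was divided between the GEM-X and v3.1 droplet chemistries.

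HSCs change with age in mice: they grow in number, lean towards platelets and myeloid cells, and carry more RNA of a recurring group of genes. Several of these genes are also used by platelets and their precursors, and a fraction of young HSCs that carries Vwf, the gene of the platelet adhesion protein von Willebrand factor, is known for platelet-biased output. The 10 genes have unlike tasks. Selp (P-selectin), Alcam (CD166) and Jam2 (junctional adhesion molecule B) are adhesion proteins of the cell surface, and Neo1 (neogenin) is a surface receptor for netrins and repulsive guidance molecules. Clu encodes clusterin, a secreted chaperone. Aldh1a1 encodes a retinaldehyde dehydrogenase that makes retinoic acid, and Gda encodes guanine deaminase, which turns guanine into xanthine. Nupr1 is a small stress-induced nuclear protein, Fhl1 a LIM-domain protein, and Ehd3 an ATPase of endosomal recycling.

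Promoter sequences are shown for 4 members whose RNA is compared below: Selp, Aldh1a1 and Nupr1, which were higher in HSC-like cells with a Vwf UMI, and Alcam, for which no such difference passed the test. Each is the stretch of 250 bases upstream of an annotated RefSeq start (GRCm38.p6), 5′ to 3′ on the gene's strand. Capitals mark matches, on either strand, to AGATAA (the GATA factor motif), AGGAAG (ETS), TGANTCA (AP-1) or CACGTG (E-box).
Selp, chr1:164115014-164115263, plus strand: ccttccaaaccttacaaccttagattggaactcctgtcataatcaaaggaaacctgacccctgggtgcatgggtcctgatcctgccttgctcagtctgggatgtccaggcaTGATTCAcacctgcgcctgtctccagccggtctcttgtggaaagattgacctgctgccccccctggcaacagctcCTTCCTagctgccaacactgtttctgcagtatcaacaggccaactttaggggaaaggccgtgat
Aldh1a1, second start, chr19:20601718-20601967, plus strand: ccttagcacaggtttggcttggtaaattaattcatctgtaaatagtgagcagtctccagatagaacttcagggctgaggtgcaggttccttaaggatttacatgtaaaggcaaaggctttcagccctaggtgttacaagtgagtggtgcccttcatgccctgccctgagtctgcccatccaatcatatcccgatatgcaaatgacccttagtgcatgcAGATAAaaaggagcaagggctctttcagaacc
Nupr1, chr7:126625471-126625720, minus strand: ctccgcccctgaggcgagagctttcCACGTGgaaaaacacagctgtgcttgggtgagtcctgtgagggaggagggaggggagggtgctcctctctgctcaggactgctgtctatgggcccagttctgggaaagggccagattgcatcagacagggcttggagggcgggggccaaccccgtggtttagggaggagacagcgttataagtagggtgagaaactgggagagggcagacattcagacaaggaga
Alcam, chr16:52453082-52453331, minus strand: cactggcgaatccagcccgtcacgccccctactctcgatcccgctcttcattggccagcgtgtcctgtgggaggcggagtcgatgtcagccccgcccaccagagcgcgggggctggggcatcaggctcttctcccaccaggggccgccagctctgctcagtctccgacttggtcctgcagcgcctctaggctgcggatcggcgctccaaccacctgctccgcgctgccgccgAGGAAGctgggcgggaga
The Selp window held an AP-1 match that began 139 bases and an ETS match that began 64 bases before the start. The second Aldh1a1 window, printed for its GATA match, held it 32 bases before the start, while the window of the first start held no GATA match and an AP-1 match at 57 bases. The Nupr1 window held an E-box match at 225 bases and the Alcam window an ETS match at 18 bases. Over 32851 windows of this length, 9.99% held AGATAA, 29.5% AGGAAG, 6.75% TGANTCA and 6.02% CACGTG. Windows were on hand for 8 of the 10 members, 10 windows in all, and those of Neo1, Gda, Fhl1 and Ehd3 held none of these letters. A match is a run of letters and was not tested as a binding site.

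The genes lie on 8 chromosomes, as annotated in GENCODE M21 (mm10), and all are protein-coding. Selp spans chr1:164115264-164150026, Clu chr14:65968483-65981547, Aldh1a1 chr19:20492715-20643465, Nupr1 chr7:126623249-126630861, and Neo1 chr9:58874687-59036441. Alcam spans chr16:52248996-52454074, Jam2 chr16:84774123-84825928, Gda chr19:21391307-21473445, Fhl1 chrX:56731787-56793346, and Ehd3 chr17:73804134-73832094. Selp, Aldh1a1 and Neo1 overlap genes on the opposite strand. The sources used here do not say whether the counting used strand, so reads of these pairs may not be separated. Fhl1 and Jam2 overlap genes on their own strand, the snRNA gene Gm23258 and the rRNA gene Gm25908, which strand cannot separate.

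Of 20511 GEM-X and 17755 v3.1 barcodes, with 0 shared between the matrices, 32330 cells passed the filters with exactly 1 hashtag, at a median of 6650 to 10028 UMIs per cell in the 8 pairings of tube and chemistry. The 10 members were kept out of the clustering, and clusters were named from marker genes. Clusters 0 and 4 each had all 13 detected HSC markers raised and together form the HSC-like cells (6864 cells). Cluster 10, with 14 of 15 detected megakaryocyte-platelet markers raised, forms the megakaryocyte (Mk)-like cells (1261 cells). It also had 4 of 6 detected mast-basophil and 4 of 12 detected erythroid markers raised, and 51.1% of its cells had a Pf4 UMI. Cluster 4 also had 9 of 13 detected megakaryocyte-platelet markers raised, and cluster 0 also had 7 of 8 macrophage-dendritic and 4 of 6 endothelial-stromal ones. Cluster 9 (1815 cells), led by immunoglobulin genes, had 8 of 13 HSC markers raised and stayed unnamed. Levels below are in CPM, the UMIs of a gene summed per tube and scaled to a common total of gene UMIs. The kits count transcript 3′ ends, so levels were not divided by gene length. The 4 tubes come from 2 animals. Tests compared the gates within each mouse, and cells with and without a Vwf UMI, or the 2 chemistries, within each tube. Their p-values thus measure how far these differences vary between the mice or tubes, and a spread pooled over genes. Where the comparison was within tubes, both tubes of an animal were counted separately.

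In Mk-like cells Alcam, Gda, Neo1 and Jam2 were lower than in HSC-like cells in all 4 tubes, without overlap, and Ehd3 was higher in all 4, also without overlap. Clu was higher in Mk-like cells of all 4 tubes with overlapping ranges, while Selp, Aldh1a1, Nupr1 and Fhl1 had no common direction. These are descriptions with no test, since the clusters were built from the same cells. Alcam had 42.1, 52.3, 41.1 and 51.2 CPM in Mk-like cells of the positive tubes of mouse 1 and mouse 2 and the negative tubes of mouse 1 and mouse 2, against 303, 312, 297 and 303 CPM in HSC-like cells of the same tubes. Its summed level in Mk-like cells was thus 0.156 of that in HSC-like cells. Gda, in the same order, had 21.6, 9.44, 12.3 and 8.82 CPM in Mk-like cells, against 36.7, 30.4, 37.6 and 27.8 CPM in HSC-like cells. Neo1 had 5.65, 1.97, 2.92 and 3.56 CPM in Mk-like cells, against 5.80, 11.4, 8.46 and 7.23 CPM in HSC-like cells. The first tube is the closest pair for both genes.

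Jam2 had 1.03, 3.54, 3.13 and 4.24 CPM in Mk-like cells, against 7.88, 6.70, 6.83 and 6.74 CPM in HSC-like cells. It rested on 51 UMIs in Mk-like cells and 344 in HSC-like cells. Ehd3 went the other way, with 21.0, 16.5, 12.7 and 16.1 CPM in Mk-like cells, against 9.33, 11.4, 8.22 and 9.40 CPM in HSC-like cells, a ratio of 1.70 on the summed counts. Clu had 11.3, 3.93, 3.75 and 3.73 CPM in Mk-like cells, against 4.15, 1.96, 2.24 and 1.29 CPM in HSC-like cells. Its positive tube of mouse 1 stood highest in both kinds of cell, and only 72 and 98 Clu UMIs lie behind these levels.

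The other 4 genes had like levels in both. Selp averaged 16.6 ± 1.10 CPM in Mk-like and 20.2 ± 3.21 CPM in HSC-like cells (SD, n = 4 tubes), lower in Mk-like cells in 3 of 4 tubes. Aldh1a1 averaged 28.1 ± 6.91 CPM in Mk-like and 28.0 ± 6.78 CPM in HSC-like cells. Nupr1 averaged 15.2 ± 3.02 CPM in Mk-like and 14.8 ± 3.76 CPM in HSC-like cells. Fhl1 averaged 13.9 ± 7.72 CPM in Mk-like and 11.6 ± 2.99 CPM in HSC-like cells, with mouse 1 above mouse 2 in both kinds of cell. For Nupr1 the order depended on the chemistry: in GEM-X counts it was 0.26 higher in Mk-like cells on the log2 scale, and in v3.1 counts the same difference was -0.17.

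Across all 18 clusters the genes had separate high points, as the map of levels by cluster shows. Nupr1, Neo1, Fhl1 and Jam2 were highest in cluster 0, with 15.6, 10.3, 13.6 and 8.26 CPM. For Neo1 and Jam2 the tubes did not overlap those of the next cluster, while for Nupr1 and Fhl1 they overlapped those of the Mk-like cluster, and in GEM-X counts Nupr1 was at 14.1 CPM in the Mk-like cluster, against 13.5 CPM in cluster 0. Ehd3 was highest in the Mk-like cluster, with tubes that overlapped those of cluster 0. Aldh1a1 was highest in the erythroid-like cluster of 164 cells, at 54.0 CPM (tubes 34.0 to 59.4), with cluster 0 next at 28.9 CPM (27.2 to 35.9), so the order of these neighbours is not separated by their tube ranges. Gda was highest in cluster 14, led by Elane and S100a8 among other genes, at 76.5 CPM (63.7 to 108). That lay above cluster 0, at 45.9 CPM (43.1 to 49.0), without overlap. Selp was highest in clusters 2 and 11, led by Cpa3 and by Ccl9 among other genes, at 38.8 and 37.4 CPM with overlapping tube ranges. Clu was highest in the T/NK-like cluster, at 13.4 CPM, from 13 UMIs in 85 cells, with tubes that overlapped those of cluster 14, the next. Alcam was at 377 CPM in cluster 13, whose cells have few UMIs, and 344 CPM in cluster 0, with overlapping tube ranges.

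**Figure D1:**
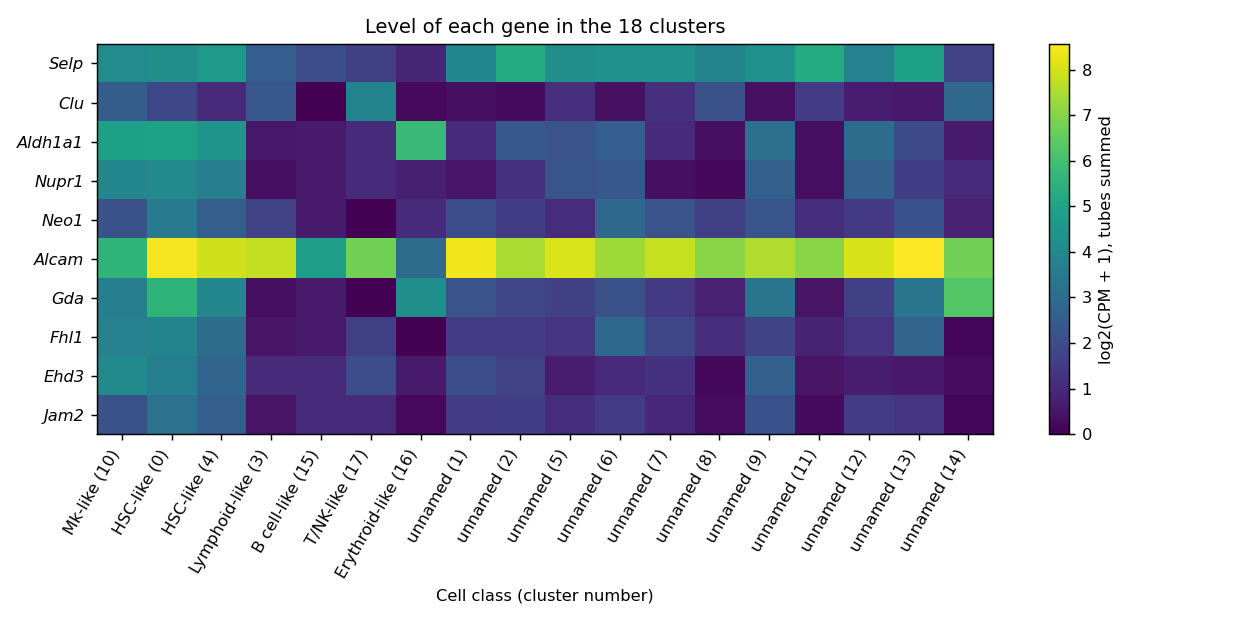
Levels of the 10 genes (rows) in the 18 clusters (columns, with the cell class and cluster number), as log2(CPM + 1) of UMIs summed over the 4 tubes. The Mk-like cluster holds Alcam at 47.0 CPM, against 344 CPM in HSC-like cluster 0, and 7 of the other genes are at or below 2.23 CPM in the lymphoid progenitor-like and B cell-like clusters.

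In lymphoid progenitor-like cells, Aldh1a1, Nupr1, Gda, Fhl1 and Jam2 were each under 0.5 CPM, from 6 to 12 UMIs in 2784 cells. Alcam, at 218 CPM, was not low there, Clu was at 3.96 CPM, Selp at 4.94 CPM, Neo1 at 2.23 CPM and Ehd3 at 1.06 CPM. Shares of cells were compared after each cell was thinned to 4000 UMIs, since the median was 11715 UMIs in Mk-like cells, 6934.5 in HSC-like cells and 8705 in lymphoid progenitor-like cells. A Gda UMI was then found in 3.73% of Mk-like cells (exact 95% interval 2.74 to 4.94) and 10.1% of HSC-like cells (9.40 to 10.9), against 0.0741% of lymphoid progenitor-like cells. Before thinning the Gda shares were 9.99%, 15.7% and 0.216%. For Aldh1a1 the thinned shares were 8.75% of Mk-like, 8.73% of HSC-like and 0.111% of lymphoid progenitor-like cells, and the unthinned shares 21.3%, 13.9% and 0.395%. The intervals cover counting error only. Clu had no UMI in 196 B cell-like cells, which allows an unthinned share of up to 1.53% (3 counts of the 196). After thinning 0.716% of HSC-like cells had one, below the 1.19% of lymphoid progenitor-like cells, and no difference is read from these shares.

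The HSC-like clusters were themselves unlike. Cluster 4, led by Sox6 and Rhoj among other genes, was lower than cluster 0, led by Ncam2 and Meg3, for Gda, Ehd3, Neo1, Jam2 and Alcam in all 4 tubes without overlap, with ratios of 0.321, 0.494, 0.495, 0.617 and 0.719. Clu and Fhl1 were lower in cluster 4 of all 4 tubes with overlapping ranges. Selp alone among the 10 was higher in cluster 4 without overlap, with 22.7, 29.1, 27.1 and 20.8 CPM in cluster 4, against 11.6, 20.1, 16.2 and 19.9 CPM in cluster 0 of the same tubes. Aldh1a1 and Nupr1 differed in sign between tubes. Cluster 4 cells had a median of 7667 UMIs and cluster 0 cells 6465.

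Within HSC-like cells, 8 of the 10 genes were higher where Vwf was detected. A Vwf UMI was found in 8.55% and 9.70% of HSC-like cells of the positive tubes of mouse 1 and mouse 2, and in 8.42% and 7.08% of those of the negative tubes, 548 cells in all against 6316 with none. Lymphoid progenitor-like cells had one in 0.431% and B cell-like cells in 0 of 196, which allows up to 1.53% (3 counts of the 196). Cells with a Vwf UMI made up 6.01% of cluster 4 and 9.27% of cluster 0, so 385 of the 548 were in cluster 0, which holds 4152 of the 6864 HSC-like cells. Counts were summed per tube in cells with and without a Vwf UMI and tested with the tube as a block (edgeR's quasi-likelihood test, Benjamini-Hochberg adjusted over 11992 genes). That test called 1.88% of all genes at 0.05, 1.38% higher and 0.492% lower. Vwf made the split and was not tested. The split also moved depth: medians were 8388, 7081, 7719 and 6888 UMIs in cells with a Vwf UMI, against 7296, 6541, 7313.5 and 6628 UMIs in cells without, in the tube order above.

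Clu differed most. It had 21.6, 9.17, 10.5 and 9.41 CPM in cells with a Vwf UMI, against 2.29, 1.10, 1.46 and 0.623 CPM in cells without, a summed ratio of 9.93. The log2 fold change was 3.25 ± 0.39 (SE of the fit, edgeR adjusted p = 1.75e-09), higher in 4 of 4 tubes without overlap, though from only 47 UMIs in cells with a Vwf UMI and 51 UMIs in the rest. After thinning, 4.36% of cells with a Vwf UMI had a Clu UMI (exact 95% interval 2.79 to 6.48), against 0.398% of cells without (0.255 to 0.591). Over the 18 clusters, which share their libraries, the Pearson r of Clu with Vwf was -0.15, against 0.87 for Aldh1a1 and 0.77 for Nupr1.

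The surface receptor genes split into those that rose and those that did not pass. Neo1 had 15.1, 32.1, 16.7 and 17.1 CPM with a Vwf UMI, against 4.81, 8.97, 7.67 and 6.42 CPM without, and rose by 1.44 ± 0.22 on the log2 scale (edgeR adjusted p = 2.65e-06). Its groups did not overlap. Selp had 15.1, 42.8, 35.6 and 37.0 CPM with a Vwf UMI, against 16.3, 21.8, 18.7 and 19.0 CPM without, and rose by 0.87 ± 0.15 on that scale (edgeR adjusted p = 2.98e-05). The positive tube of mouse 1, with 7 Selp UMIs in its Vwf cells, was the 1 tube of 4 that was not higher. Jam2 had 17.3, 7.64, 16.0 and 6.47 CPM with a Vwf UMI, against 6.88, 6.59, 5.95 and 6.76 CPM without, and its log2 fold change of 0.77 ± 0.28 did not pass (edgeR adjusted p = 0.189). Both tubes of mouse 1 stood well above the rest and both tubes of mouse 2 did not. Alcam had 283, 318, 293 and 360 CPM with a Vwf UMI, against 305, 312, 297 and 298 CPM without, a difference of 0.08 ± 0.06 (edgeR adjusted p = 0.670). Alcam was detected before thinning in 76.6% of cells with a Vwf UMI and 76.1% of those without.

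The 5 genes with tasks inside the cell all rose. Nupr1 had 25.9, 41.2, 21.6 and 26.5 CPM with a Vwf UMI, against 12.2, 17.7, 10.8 and 12.7 CPM without (log2 fold change 1.08 ± 0.17, edgeR adjusted p = 5.66e-06). Fhl1 had 30.2, 24.4, 21.6 and 15.9 CPM, against 12.8, 8.42, 12.8 and 7.43 CPM (1.07 ± 0.20, edgeR adjusted p = 1.72e-04). Ehd3 had 19.4, 19.9, 15.3 and 15.3 CPM, against 8.25, 10.4, 7.54 and 8.92 CPM (0.94 ± 0.22, edgeR adjusted p = 0.00575). For these 3 genes every tube was higher and the groups did not overlap. Gda had 36.7, 50.4, 68.3 and 45.9 CPM with a Vwf UMI, against 36.7, 28.0, 34.7 and 26.4 CPM without (0.79 ± 0.12, edgeR adjusted p = 3.54e-06). Aldh1a1 had 49.7, 55.0, 39.8 and 34.1 CPM, against 36.2, 21.4, 26.5 and 20.8 CPM (0.74 ± 0.14, edgeR adjusted p = 1.09e-04). Both enzymes were higher in 4 of 4 tubes, but the difference of Gda in the positive tube of mouse 1 was close to 0 and the ranges of Aldh1a1 overlapped.

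**Figure D2:**
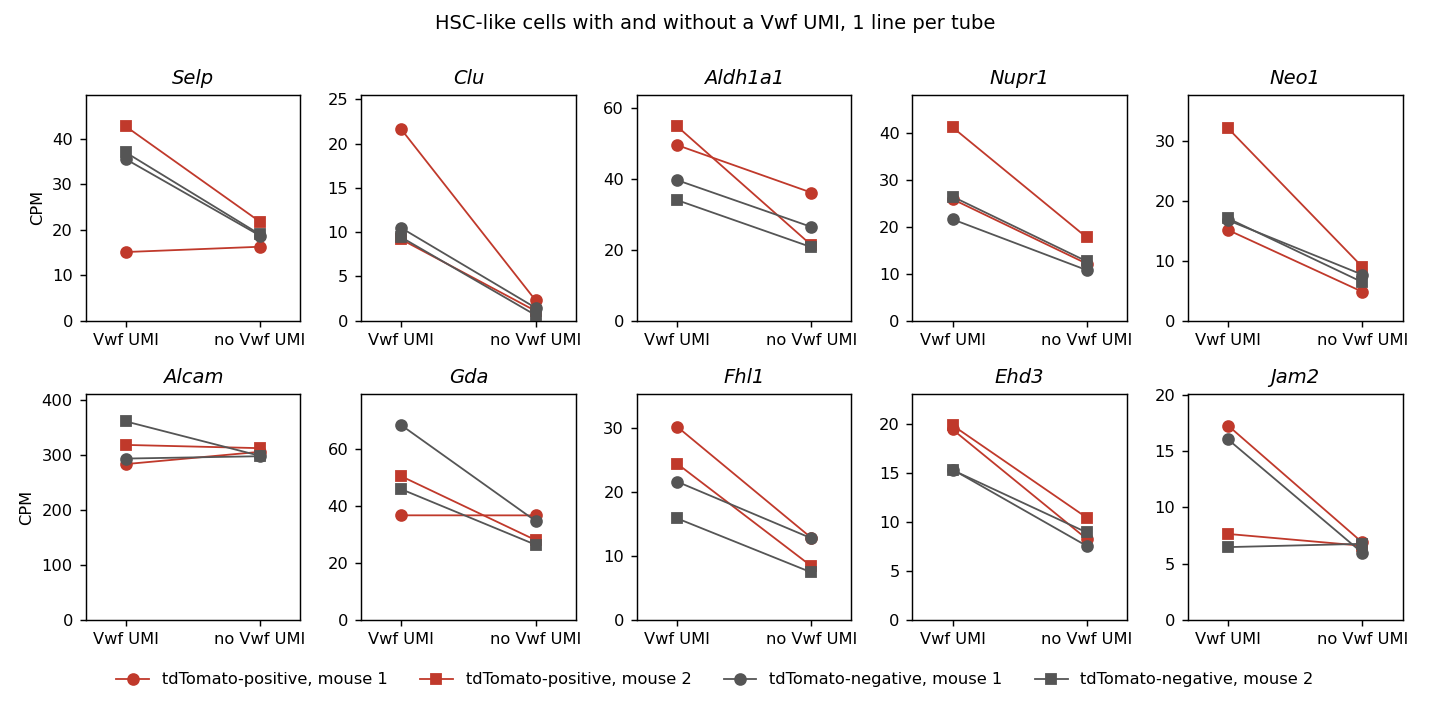
Level (CPM) of each gene in HSC-like cells with a Vwf UMI (left) and without (right), with 1 line per tube. Clu lies at 9.17 to 21.6 CPM in cells with a Vwf UMI, against 0.623 to 2.29 CPM in cells without, and the Alcam ranges overlap.

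The 8 genes kept a higher level with a Vwf UMI under every alternative that was run, but not every call held. With every cell thinned to 4000 UMIs before the split, only Clu (3.42 ± 0.68, edgeR adjusted p = 2.11e-04) and Nupr1 (1.35 ± 0.31, edgeR adjusted p = 0.00305) passed, and the split then held 290 cells with a Vwf UMI. In v3.1 counts alone and in cluster 4 alone 0 of the 8 passed, against 8 in GEM-X counts alone and 7 in cluster 0 alone. Calls over all genes were fewer too: 17 of 10503 in v3.1 counts and 20 of 10450 in cluster 4, against 245 of 11178 in GEM-X counts and 118 of 11271 in cluster 0. Leaving out the negative tube of mouse 1 or of mouse 2 left 7 and 6 of the 8: Ehd3 no longer passed in either (edgeR adjusted p = 0.121 and 0.0849), nor did Selp without the negative tube of mouse 2 (edgeR adjusted p = 0.0643). Without the tube as a block Aldh1a1 did not pass (edgeR adjusted p = 0.0880), and Ehd3 did not pass in DESeq2 (adjusted p = 0.106).

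Markers of other classes moved with the split. The 17 megakaryocyte-platelet markers summed to 595 to 665 CPM in cells with a Vwf UMI, against 537 to 566 CPM in cells without, with 11 of the 17 higher on summed counts and 2 at 0 in the cells with a Vwf UMI. Pf4, the platelet factor 4 gene and a defining marker, was at 21.9 CPM in cells with a Vwf UMI, against 26.8 CPM in cells without, and a Pf4 UMI was found in 12.8% and 13.8% of them. All 8 genes still passed when cells with a Pf4 UMI were left out. That took a like share from both groups, so it does not show what part the megakaryocyte-platelet markers have. The 14 HSC markers summed to 4583 to 4841 CPM with a Vwf UMI, against 4264 to 4411 CPM without, with 12 of the 14 higher, and none of those markers was at 0. The 13 erythroid markers also summed higher, at 913 to 967 CPM, against 828 to 877 CPM, though with 5 of the 13 higher and 3 at 0 in the cells with a Vwf UMI. The 12 lymphoid progenitor markers summed lower, at 494 to 548 CPM with a Vwf UMI, against 605 to 644 CPM without, with 1 of the 12 higher and 2 at 0. Sums of T and NK cell markers (26.0 to 37.6 CPM, against 40.6 to 49.2 CPM) and neutrophil markers (5.58 to 9.41 CPM, against 11.2 to 12.1 CPM) were also lower without overlap. Of the 9 T and NK cell markers, however, 5 were at 0 in each group and 2 were higher with a Vwf UMI. Among the 7 neutrophil markers, 1 was higher and 2 were at 0 in the cells with a Vwf UMI. The ranges of the other 5 lists overlapped. The part of these markers in the result was not tested.

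Of 21 other genes commonly listed as raised in old HSCs (22 with Vwf), 17 could be tested in this split, and 10 rose and 0 fell, with a median log2 fold change of 1.18 over the 17. Of all genes tested, 1.38% were called higher and 0.492% lower. The list was chosen with earlier results of these data known. The median over the 10 members was 0.90, and over all genes tested it was close to 0 (-0.0027). Largest were Amotl2, an angiomotin family gene (2.70 ± 0.60, edgeR adjusted p = 0.00272), Cavin2, a caveolar coat gene (2.10 ± 0.18, 1.17e-15), Clca3a1 (1.72 ± 0.18, 6.77e-12) and Sult1a1, a sulfotransferase gene (1.57 ± 0.20, 6.30e-09).

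Most pairs of members were found together in single HSC-like cells more often than their own shares give. In thinned HSC-like cells, 36 of the 45 pairs of members had an expected number of at least 5 shared cells. The observed number exceeded the expected in 29 of these 36, in 15 of them in all 4 tubes, with a median ratio of 1.38 and a range of 0.897 to 2.35. The pair of Nupr1 and Gda was seen in 58 cells where 28.9 were expected, above 1 in all 4 tubes, and Aldh1a1 with Fhl1 in 47 cells where 23.7 were expected. Pairs with Alcam stayed near their expected number, as with Gda, at 400 cells where 412 were expected. Leaving Alcam aside, 19.9% of HSC-like cells with a Vwf UMI had UMIs of at least 2 members after thinning, against 7.02% of those without. The same share was 5.67% in Mk-like cells and 8.06% in HSC-like cells, and 0.148% in lymphoid progenitor-like cells. These are counts of cells that share 4 tubes and carry no test. Expected numbers were taken per tube over both HSC-like clusters together, which differ in the levels of most members. Pairs of other genes were not counted, so no excess particular to the members is read from these ratios.

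Between the tdTomato gates, no member passed the test in any of the 3 sets of cells. In HSC-like cells, edgeR with the mouse as a block called 0.0294% of 13613 genes, and 0 of the 10 members (adjusted p 0.720 to 0.993). At an unadjusted p under 0.05 there were 3, Nupr1, Aldh1a1 and Clu, and DESeq2 called 0, with 0 at an unadjusted p under 0.05. All 10 fitted differences were above 0, with a median of 0.21 on the log2 scale, while the median over all genes tested was 0.0018 and 50.8% of genes were above 0. The per-mouse values were mixed: Selp, Neo1 and Gda were lower in the positive tube of mouse 1, and Jam2 in that of mouse 2. Cluster 0 made up 405 of 643 HSC-like cells in the positive tube of mouse 1, against 1458 of 2149 in its negative tube. For mouse 2 these were 549 of 907 and 1740 of 3165, so the share was larger in the positive tube there and smaller in mouse 1. The part of this make-up in the gate values was not tested.

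Nupr1 had 13.5 and 20.3 CPM in HSC-like cells of the positive tubes of mouse 1 and mouse 2, against 11.7 and 13.7 CPM in the negative tubes, for a fitted log2 difference of 0.43 ± 0.13 (edgeR adjusted p = 0.801). Aldh1a1 had 37.5 and 25.0 CPM in the positive tubes, against 27.7 and 21.8 CPM in the negative tubes (0.33 ± 0.10, edgeR adjusted p = 0.720). Clu had 4.15 and 1.96 CPM in the positive tubes, against 2.24 and 1.29 CPM in the negative tubes (0.78 ± 0.34, edgeR adjusted p = 0.915). In all 3 the positive tube was higher within each mouse, and the positive tube of 1 mouse fell below the negative tube of the other. Alcam, with 303 and 312 CPM in the positive tubes, against 297 and 303 CPM in the negative tubes, did not overlap but differed by 0.04 ± 0.03.

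In Mk-like cells edgeR called 0.0792% of 11364 genes between the gates, 0.0704% higher and 0.0088% lower, and again 0 of the 10 members (adjusted p 0.673 to 0.995). At an unadjusted p under 0.05 there were 3, Clu, Gda and Fhl1, and DESeq2 called 0, with 0 unadjusted. Clu had 11.3 and 3.93 CPM in the positive tubes, against 3.75 and 3.73 CPM in the negative tubes (0.93 ± 0.38, edgeR adjusted p = 0.673). Gda had 21.6 and 9.44 CPM in the positive tubes, against 12.3 and 8.82 CPM in the negative tubes (0.51 ± 0.24, edgeR adjusted p = 0.785). Fhl1 had 24.1 and 8.65 CPM in the positive tubes, against 15.6 and 7.29 CPM in the negative tubes (0.49 ± 0.23, edgeR adjusted p = 0.798). Mouse 1 carried most of each difference. Without the positive tube of mouse 2, in a fit that also dropped the mouse block and assumed the lone positive tube to vary like the negative ones, Fhl1 passed at 1.13 (edgeR adjusted p = 0.0472), while its difference within mouse 1 was 0.62. The sum of 17 megakaryocyte-platelet markers moved with the gate in these cells, at 2165 and 1692 CPM in the positive tubes, against 1341 and 1391 CPM in the negative tubes. Pf4, a marker in this sum, was alone at 1102 and 683 CPM, against 430 and 485 CPM, with up to 434 UMIs in a single cell. The part of these markers in the members' values was not tested.

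Over all cells the gates differed in 0.796% of 16586 genes, 0.555% higher and 0.241% lower, and in 0 of the 10 members (edgeR adjusted p 0.227 to 0.999). Here 2 members, Nupr1 and Gda, had an unadjusted p under 0.05, and DESeq2 called 0, with 0 unadjusted. Gda had 11.5 and 10.4 CPM in the positive tubes, against 8.70 and 10.4 CPM in the negative tubes (0.22 ± 0.07, edgeR adjusted p = 0.227), and the difference lay in mouse 1. Of the 22 other listed genes, Cavin2 (0.57 ± 0.08, edgeR adjusted p = 3.25e-06) and Vwf (0.36 ± 0.09, 0.0385) rose in all cells, Vwf also in Mk-like cells (0.60 ± 0.14, 0.0348, 1 of 14 tested), and 0 of 21 tested in HSC-like cells, where 4 had an unadjusted p under 0.05. Both calls over all cells ended in DESeq2, without the mouse block, in either chemistry alone and with any tube left out (adjusted p 0.0524 or higher), that of Vwf also with RLE scaling (0.0724) and without Scrublet doublets (0.382). The call of Vwf in Mk-like cells ended in DESeq2, with no filter, without the block, in GEM-X counts and with any tube but the positive one of mouse 2 left out (adjusted p 0.0932 or higher).

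**Figure D3:**
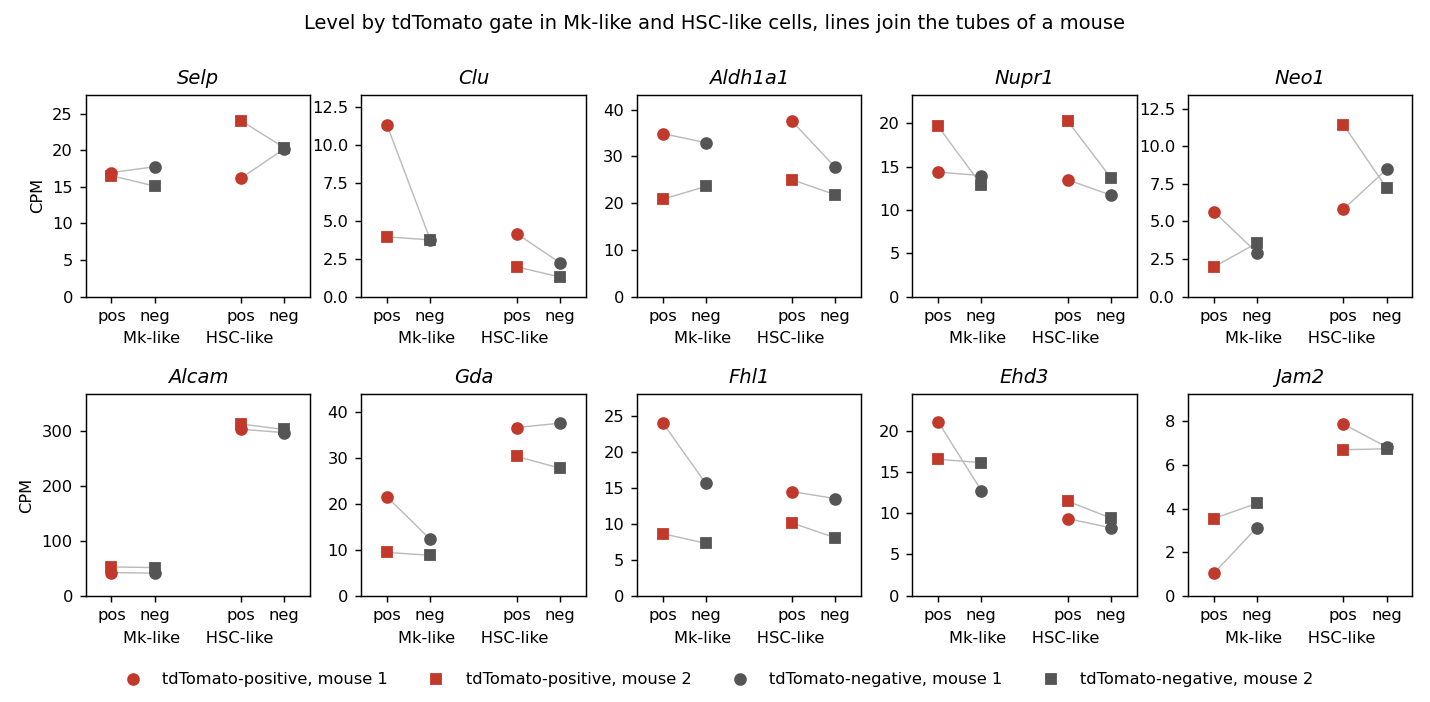
Level (CPM) of each gene in the tdTomato-positive (pos) and tdTomato-negative (neg) tubes, in Mk-like cells on the left and HSC-like cells on the right of each panel. Lines join the tubes of a mouse; the 2 mice often lie farther apart than the 2 gates, as for Fhl1 in Mk-like cells, with 24.1 and 8.65 CPM in the positive tubes and 15.6 and 7.29 CPM in the negative tubes.

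The difference made by a Vwf UMI was then compared between the gates, as an interaction term over the HSC-like cells. None of the 10 members passed (edgeR adjusted p 0.899 to 0.998, 0 at an unadjusted p under 0.05), and 0.0584% of 11992 genes did. Fitted interactions, positive minus negative gate, ran from -0.40 ± 0.26 for Gda to 0.50 ± 0.45 for Neo1 on the log2 scale. For Clu the value was -0.15 ± 0.73.

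**Figure D4:**
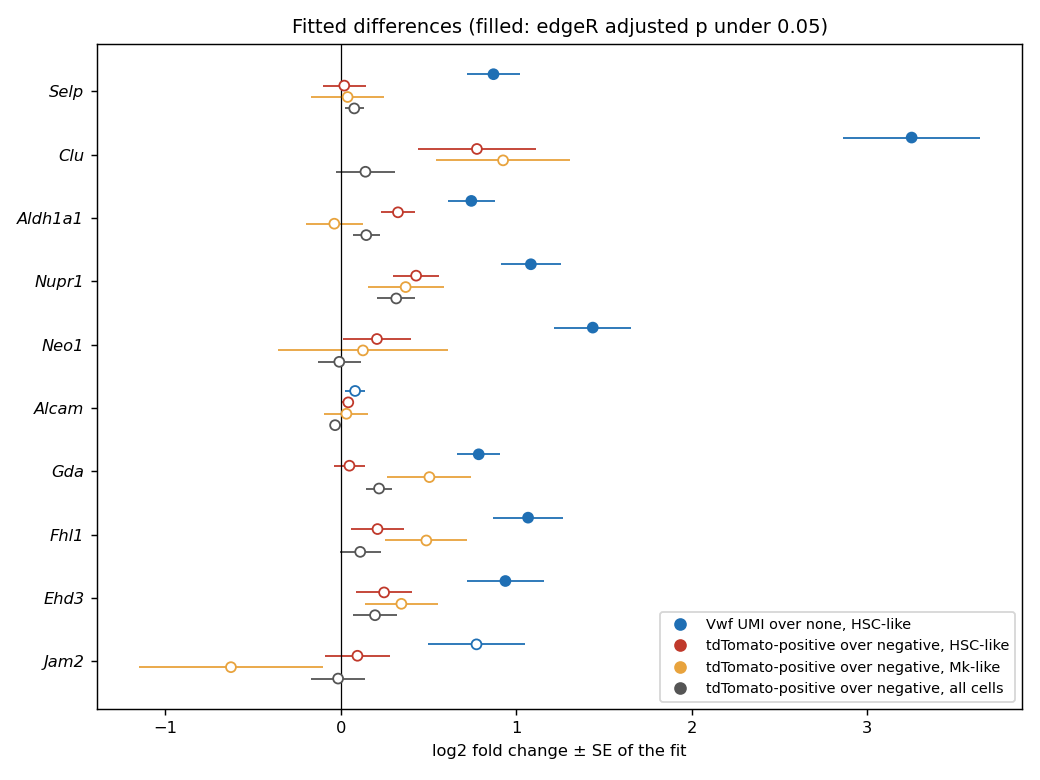
Fitted log2 fold changes ± SE for the 10 genes. The 8 filled points, all for HSC-like cells with a Vwf UMI over those without, lie between 0.74 and 3.25, and every tdTomato-positive over tdTomato-negative point is open.

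The chemistry moved the members' levels in both directions. GEM-X differed from v3.1 in 73.2% of 15862 genes, 37.0% higher and 36.2% lower, and in 9 of the 10 members, a share not far from that of all genes. Selp rose by 0.58 ± 0.04 on the log2 scale in GEM-X (edgeR adjusted p = 5.38e-10), with 19.4, 24.2, 19.9 and 21.4 CPM in GEM-X, against 12.5, 17.1, 13.0 and 15.2 CPM in v3.1. Ehd3 (0.42), Aldh1a1 (0.38), Gda (0.37), Fhl1 (0.32) and Alcam (0.11) also rose. Clu fell by 0.43, Nupr1 by 0.37 and Neo1 by 0.26 (edgeR adjusted p = 0.00713, 9.03e-04 and 0.0158), all lower in GEM-X in 4 of 4 tubes. Jam2 did not pass (0.11 ± 0.13, edgeR adjusted p = 0.428). DESeq2 did not call Neo1, Clu or Fhl1 (adjusted p = 0.106, 0.0617 and 0.103). Leaving out the negative tube of mouse 2 also ended the calls of Neo1 (edgeR adjusted p = 0.103) and Clu (0.0527), and leaving out that of mouse 1 ended the call of Fhl1 (0.125). Each tube was divided between both chemistries, so the gates and the Vwf split hold both in each tube. Their shares were not matched between cells with and without a Vwf UMI, and the fits in each chemistry alone are given above.

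Genes whose levels followed those of a member most closely over the 18 clusters were found by Pearson r of log2(CPM + 1), a description since clusters share their libraries. Aldh1a1 was most like Clca3a1 (r = 0.966), Nadk2 and Myo1d, and Nupr1 most like Plscr2 (0.917), Clec1a and Apoe. Clca3a1, Plscr2 and Clec1a are among the 22 other listed genes. Ehd3 was most like Pf4 (0.843), Ikzf4 and Tcf15, and Jam2 most like Ikzf4 (0.976), Gstt1 and Itsn1. Fhl1 was most like Mtss2 (0.919), Slc6a15 and Pros1, and Neo1 most like Cpxm1 (0.940), Ets2 and Mtss2. Selp was most like Muc13 (0.933), Spns2 and Acsl3, and Alcam most like Nod1 (0.966), Appl2 and Fgd4. Gda was most like Grb10 (0.860), Plpp5 and Zfp106, and Clu, whose highest r was the lowest of the 10, most like Sh2d1b1 (0.791), Serpine2 and Nfil3. Among the members themselves r ranged from -0.31 to 0.85 over the 45 pairs.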

How the data were processed

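Per the labels' protocols, gene expression and hashtag libraries of Lin-Sca+Kit+ bone marrow cells were made with 10x Genomics 3′ kits. The authors deposited raw UMI counts per gene and cell barcode. Per the file headers the GEM-X counts come from Cell Ranger 8.0.1 and the v3.1 counts from 7.1.0; the submitters' processing notes name Cell Ranger 7.0.0 and mm10. Which matrix belongs to which chemistry was inferred from the matrix names and these versions. The labels give 2 accounts of the sort, and here each hashtag stands for 1 mouse and gate, as a deposited text pairs them. No tdTomato level was used to place cells.

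Cells needed 1000 or more genes and 10% or less mitochondrial UMIs (20140 GEM-X and 16721 v3.1). Hashtags were called by a Gaussian mixture with 2 components (scikit-learn 1.9.0, posterior above 0.5). Cells without a hashtag (63 and 13) or with several (2091 and 2364) were removed. Doublets of cells from the same tube are not found this way. Scrublet's automatic threshold called 0% of cells, so the 5% of cells with the highest scores, which included 34.0% and 28.2% of the hashtag doublets, were left out as an alternative. Clustering (scanpy 1.11.5, Leiden at resolution 1 with leidenalg 0.10.2, 2000 variable genes, 30 components, 30 neighbours) excluded the 10 members. A cluster was named when 3 or more markers, and 66.7% or more of the detected ones, exceeded the other cells by 0.5 in log2 units. It stayed unnamed when another class led its 10 leading genes or its UMIs were few. The same held when 3 or more of the 10 leading genes were cell cycle or histone genes, or 3 or more were immunoglobulin chain genes. Names mean these markers, not function.

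Summed counts were tested with edgeR 4.0.16 in R 4.3.3 (TMM, filterByExpr, quasi-likelihood F-test, Benjamini-Hochberg at 0.05), with the mouse as a block for the gates and the tube as a block for the Vwf split and the chemistries. The pairing comes from the design text: both gates of a mouse are from the same animal, and both kinds of cell from the same tube. Trended dispersions were held at 1e-04 or above. Standard errors were derived from the fold change and F. The script was tested on simulated counts. Alternatives were DESeq2 1.42.0, RLE scaling, no filter, no block, each chemistry alone, no Scrublet doublets, thinning to 4000 UMIs (1784 cells left out, 301 of them HSC-like), members allowed in the clustering, and each tube left out (for the gates without the block). Splits within cluster 0 or 4, without Pf4 cells or summed per mouse, and the interaction with the gate, were chosen after seeing the data.

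The members, the list of 22 other genes, the markers and the naming thresholds were chosen with earlier results of these data known. All 10 members are named in every comparison, with up to 4 of the other list that passed with the largest change and the 3 genes of highest r among those with at least 10 CPM in some cluster. Annotation was matched for 32158 of 32285 genes.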

Additional observations from a re-analysis of the deposited data

How the results depend on the processing

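With 4 tubes of 2 mice, counts of genes called between the gates were unstable. Over all cells (132), the count was 5 in DESeq2, 208 with no filter, 1 in GEM-X and 61 in v3.1 counts alone, 20 without Scrublet doublets, and 0 without the replicate block (102 at an unadjusted p under 0.05). In HSC-like cells (4) it was 0 in DESeq2 (9 unadjusted), 7 with no filter, 0 without the block (277 unadjusted), 2 in v3.1 counts, 7 without Scrublet doublets and 10 with members in the clustering. In Mk-like cells (9) it was 0 in DESeq2 (8 unadjusted), 1 without the block, 4 in GEM-X and 20 in v3.1 counts, and 41 with members in the clustering. For the Vwf split (225) it was 64 thinned, 81 in DESeq2, 95 without the block, 17 in v3.1 counts, 118 in cluster 0 and 20 in cluster 4. The 3 tubes left for the gates when 1 is dropped leave no residual degrees of freedom beside the mouse block, so those fits also dropped the block, and their moves cannot be put down to the tube alone. Leaving out each tube gave 0 to 1 over all cells, 0 to 30 in HSC-like cells, 4 to 21 in Mk-like cells, 85 to 184 for the Vwf split and 10422 to 11512 for the chemistries. The cause was not tested.

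No member passed between the gates under any alternative but 1, Fhl1 in Mk-like cells without the positive tube of mouse 2 and without the block (1.13, against 0.62 within mouse 1). Signs of members that had not passed changed as follows (log2 fold changes). Over all cells these were Neo1 without the block (0.0074) and Neo1 (0.071), Jam2 (0.10) and Aldh1a1 (-0.087) in v3.1 counts. In HSC-like cells they were Selp in DESeq2 (-0.021) and with members in the clustering (-0.14), and Jam2 (-0.15), Aldh1a1 (-0.041) and Gda (-0.28) in v3.1 counts. In Mk-like cells they were Selp in GEM-X counts (-0.16), Alcam (-0.048) and Aldh1a1 (0.033) in v3.1 counts, and Selp (-0.17) and Alcam (-0.11) with members in the clustering. In the Vwf split Alcam changed sign in GEM-X counts (-0.0014) and in cluster 4 (-0.38). Leaving out each tube, with the block dropped too for the gates, moved, over all cells, Selp from -0.071 to 0.22, Nupr1 from -0.20 to 0.73, Neo1 from -0.41 to 0.33, Clu from -0.48 to 0.59, Jam2 from -0.29 to 0.28, Ehd3 from -0.17 to 0.63 and Fhl1 from -0.15 to 0.34. The ranges were, in HSC-like cells, -0.32 to 0.24 for Selp, -0.42 to 0.55 for Neo1, -0.020 to 0.23 for Jam2, -0.18 to 0.27 for Gda and -0.16 to 0.60 for Fhl1. In Mk-like cells they were -0.10 to 0.16 for Selp, -0.74 to 0.81 for Neo1, -0.12 to 0.19 for Alcam, -0.44 to 0.34 for Aldh1a1, -0.17 to 1.07 for Gda and -0.39 to 1.13 for Fhl1, and in the Vwf split -0.023 to 0.12 for Alcam. Nupr1 moved between Mk-like and HSC-like cells to 0.26 in GEM-X and -0.17 in v3.1 counts. Without the tube block, the chemistry calls of Nupr1, Neo1, Clu, Ehd3 and Fhl1 were lost (edgeR adjusted p 0.190 to 0.274).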

Other observations

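Cluster 9, led by immunoglobulin genes, had 8 of 13 detected HSC markers raised, under the 66.7% needed for a name. It held 9 of the 10 members at lower levels than either HSC-like cluster on summed counts. The exception was Selp, at 18.8 CPM in cluster 9, against 17.7 CPM in cluster 0 and 23.7 CPM in cluster 4, with overlapping tube ranges. For Ehd3, Neo1, Jam2 and Clu the tube ranges of cluster 9 also overlapped those of cluster 4. Aldh1a1 was at 7.80 CPM (tubes 3.44 to 12.8), Nupr1 at 5.23 CPM (2.29 to 6.73), Ehd3 at 5.23 CPM (1.15 to 6.55), Neo1 at 3.69 CPM (3.44 to 4.04) and Jam2 at 3.49 CPM (2.29 to 5.38). After thinning to 4000 UMIs, 2.50% of its cells had UMIs of at least 2 members other than Alcam, against 8.06% of HSC-like cells. With members allowed in the clustering, a cluster of 1465 cells led by immunoglobulin genes was named HSC. Nupr1 and Aldh1a1 were among its 10 leading genes. It had 10 of 13 detected HSC and 9 of 13 detected megakaryocyte-platelet markers raised, against 8 of 13 and 2 of 12 in cluster 9. How many cells it shares with cluster 9 was not counted. These are descriptions of clusters built from the same cells.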
